A study of Mus musculus with 6 samples.

Results

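The 9 genes described here are the enteroendocrine fate factors Neurog3, Neurod1, Insm1, Nkx2-2, Pax4, Pax6 and Isl1 and the granins Chga and Chgb. They were chosen by symbol, and each matched 1 Ensembl gene among the 31227 of the count table. All 9 passed the filter on low counts, which left 15503 genes to test. They were measured by RNA-seq in 6 libraries of mouse intestinal organoids, small cultures of gut epithelium grown from stem cells. There were 2 wild-type (WT) libraries, 2 labelled Smad4 KO, called the knockout here, and 2 labelled Smad4 KO with TGF-β, given at 0.5 nM and called the treated knockout. All titles carry 48 h, and the protocol mentions both 48 h and 2 days of TGF-β, so the total exposure is not certain. Every group was grown in a medium with EGF (50 ng/ml), Noggin (100 ng/ml), which blocks BMP ligands, and R-spondin1 (500 ng/ml), which raises Wnt signalling. How Smad4, the shared partner of the SMAD proteins of the TGF-β and BMP pathways, was inactivated, the strain, sex and age of the mice, and whether replicates were separate cultures or animals, is not stated in the labels. The p-values therefore measure only the spread between these libraries, which may be technical. A group of WT organoids with TGF-β was not analysed here.

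Enteroendocrine cells are the scattered hormone-secreting cells of the gut lining. They arise from secretory precursors that express the transcription factor Atoh1 and escape Notch signalling, and then switch on Neurog3 for a short time. Neurog3 is required for the lineage and is followed by Neurod1, Insm1, Nkx2-2, Pax4, Pax6 and Isl1, which carry differentiation forward and help to set which hormone a cell makes. Chga and Chgb encode chromogranins, acidic proteins packed with hormones into dense-core granules and used as general markers of endocrine cells.

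Library totals corresponded to about 10.1 to 12.7 M fragments, where 1 fragment seems to stand for about 4 units of the deposited estimated counts. Smad4, the check of the labels, stood at 99.4 and 109 CPM in WT, 21.7 and 23.1 CPM in the knockout and 25.2 and 29.5 CPM in the knockout with TGF-β. CPM is the count of a gene relative to its library's total, scaled by TMM, edgeR's correction for library composition. Epithelial markers were abundant, with a summed level of 7515 to 14113 CPM for 10 genes. Among 10 markers of enteric neurons and glia, which also use several of these factors, Hand2 and Sox10 were at 0 in all libraries, and the summed level was 2.28 to 4.88 CPM. Among 10 pancreatic markers 8 were at 0, including Ins1, Ins2 and Nkx6-1. The summed level of that list was still 44.6 to 105 CPM, with Slc2a2 as its most abundant gene. Slc2a2 was higher in Smad4 KO than in WT, and lower with TGF-β than in either other group (edgeR adjusted p under 0.05 each). Of 10 fibroblast, endothelial and leukocyte markers, 4 were at 0 and the sum was 0.859 to 2.03 CPM.

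In Smad4 KO organoids 4 of the 9 genes fell against WT and 0 rose. They were Neurog3, Chgb, Insm1 and Chga, in order of fold. In the same comparison 13.4% of all tested genes passed as lower and 16.9% as higher, 30.3% in all, and 41.3% had an unadjusted p under 0.05, as 5 of the 9 did. The other 5 did not pass; 4 of them had both Smad4 KO libraries below both WT libraries, and Pax4 overlapped. Over all tested genes 34.5% had libraries that did not overlap in the lower direction and 32.2% in the higher. The median log2 fold change of the 9 genes was -0.75, against -0.02 over all tested genes. With library totals in place of TMM scaling, 2926 genes passed as lower and 2125 as higher, in place of 2084 and 2620, and 4 of the 9 genes still passed. In bulk RNA, fewer enteroendocrine cells and less of these transcripts per cell cannot be told apart.

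**Figure D1:**
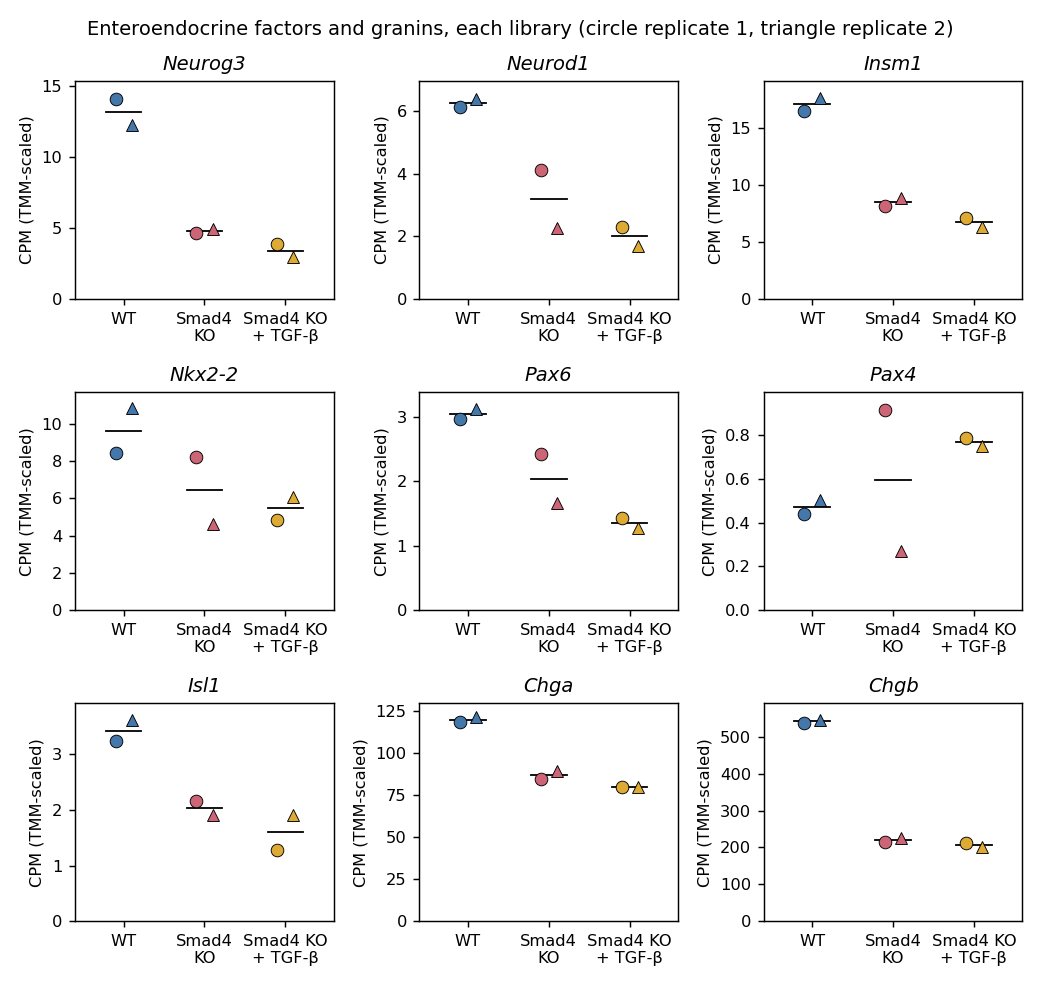
Level of each of the 9 genes in every library, as TMM-scaled CPM on a linear axis that starts at 0, with a bar at the mean of each group. Both WT points stand above all other points for every gene but Pax4, for Nkx2-2 by a narrow margin; Pax4 stays under 1 CPM and has no such order.

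Neurog3 (ENSMUSG00000044312, GRCm38 chromosome 10, 62133090 to 62134763, plus strand) is a basic helix-loop-helix factor and the entry point of the lineage. It stood at 14.1 and 12.2 CPM in WT, at 4.63 and 4.91 CPM in the knockout and at 3.86 and 2.94 CPM with TGF-β. All Smad4 KO libraries, treated or not, lay below both WT libraries. Neurog3 was 2.76-fold lower in the knockout than in WT (log2 fold change -1.46 ± 0.20 SE, 2 libraries in each group, edgeR adjusted p = 0.00229). Of its exon bases, 16.3% overlap Fam241b on the opposite strand. Fam241b itself stood at 24.1 and 23.0 CPM in WT and at 18.1 and 13.9 CPM in the knockout (log2 fold change -0.56, edgeR adjusted p = 0.0352). Since the strand setting of the counts is not given in the sources used here, reads from the shared part could belong to either gene. The sequence upstream of Neurog3 is shown because this gene had the lowest fold change of the 9, and basic helix-loop-helix factors recognise E-boxes. The 250 bases before the RefSeq start (chr10:62132840-62133089, plus strand, GRCm38.p6) hold 1 E-box, CANNTG, marked in capitals, here in the form CAGCTG.
Neurog3 upstream: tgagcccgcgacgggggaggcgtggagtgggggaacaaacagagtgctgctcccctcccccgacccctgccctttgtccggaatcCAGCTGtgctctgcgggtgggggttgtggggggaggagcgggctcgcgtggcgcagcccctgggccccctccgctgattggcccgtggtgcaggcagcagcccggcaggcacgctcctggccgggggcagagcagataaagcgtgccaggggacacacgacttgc

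Neurod1 (ENSMUSG00000034701, chromosome 2, 79452521 to 79456751, minus strand), a related helix-loop-helix factor that Neurog3 activates, was measured at 6.13 and 6.39 CPM in WT, 4.12 and 2.25 CPM in the knockout and 2.31 and 1.69 CPM with TGF-β. The 2 Smad4 KO libraries differed from each other by nearly as much as the higher of them differed from WT. The log2 fold change was -0.97 ± 0.34 SE, which did not pass (edgeR adjusted p = 0.075). Without Smad4 KO replicate 1 it was -1.47 and passed (edgeR adjusted p = 0.0307). Neurod1 exons overlap Cerkl and Gm26755 on 13.0% of their bases, and both of these stayed under 1 CPM in all libraries.

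Insm1 (ENSMUSG00000068154, chromosome 2, 146221921 to 146225020, plus strand), a zinc finger repressor of endocrine progenitors, had 16.6 and 17.7 CPM in WT, 8.20 and 8.87 CPM in the knockout and 7.17 and 6.34 CPM with TGF-β. The 3 groups did not overlap. Insm1 was 2.01-fold lower in the knockout than in WT (95% interval of the log2 fold change -1.33 to -0.67, edgeR adjusted p = 0.00249). It is a gene with a single exon, and no other annotated exon overlaps it.

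Nkx2-2 (ENSMUSG00000027434, chromosome 2, 147177546 to 147194243, minus strand), a homeodomain factor, stood at 8.40 and 10.8 CPM in WT, 8.22 and 4.63 CPM in the knockout and 4.86 and 6.09 CPM with TGF-β. Smad4 KO replicate 1 lay just under the lower WT library. The difference from WT did not pass (log2 fold change -0.58 ± 0.30 SE, edgeR adjusted p = 0.206). The long noncoding Nkx2-2os, which overlaps 9.67% of its exon bases on the opposite strand, was at 0 in all libraries.

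The LIM homeodomain factor Isl1 (ENSMUSG00000042258, chromosome 13, 116298281 to 116309689, minus strand) had 3.23 and 3.61 CPM in WT, 2.16 and 1.91 CPM in the knockout and 1.27 and 1.92 CPM with TGF-β. Pax6 (ENSMUSG00000027168, chromosome 2, 105668900 to 105697364, plus strand), a paired-box factor of several hormone-producing cell types, had 2.96 and 3.13 CPM in WT, 2.42 and 1.66 CPM in the knockout and 1.43 and 1.28 CPM with TGF-β. Both genes were lower in every Smad4 KO library than in every WT library, but neither difference passed (log2 fold change -0.75 ± 0.31 SE for Isl1 and -0.58 ± 0.31 SE for Pax6, edgeR adjusted p = 0.125 and 0.221). These are values of 55 to 169 units per library over all 6 libraries, which limits their precision.

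Pax4 (ENSMUSG00000029706, chromosome 6, 28442334 to 28449353, minus strand), a paired-box factor of early endocrine precursors, was close to the limit of detection. Its units were 23 and 22 in WT, 36 and 11 in Smad4 KO and 34 and 33 with TGF-β. The floor of 3 fragments is 12 units, so 1 library lay under it and the others a few fragments above. The 2 Smad4 KO libraries lay on either side of WT, and a difference was not detectable at this depth (log2 fold change 0.33, 95% interval -1.50 to 2.17, edgeR adjusted p = 0.786). Its estimate turned to -0.78 without Smad4 KO replicate 1.

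The granins were the most abundant of the 9 genes. Chgb (ENSMUSG00000027350, chromosome 2, 132781278 to 132795079, plus strand) stood at 537 and 545 CPM in WT, at 215 and 224 CPM in the knockout and at 213 and 202 CPM with TGF-β. The WT libraries were far above the other 4, which lay close together. Chgb was 2.46-fold lower in the knockout than in WT (log2 fold change -1.30 ± 0.04 SE, edgeR adjusted p = 6.9e-06). Chga (ENSMUSG00000021194, chromosome 12, 102554969 to 102565028, plus strand) stood at 118 and 121 CPM in WT, at 84.5 and 89.4 CPM in the knockout and at 80.0 and 79.7 CPM with TGF-β. Its groups did not overlap either, but its fold was smaller: 1.38-fold lower (log2 fold change -0.46 ± 0.06 SE, edgeR adjusted p = 0.00148). The exons of the 2 granin genes overlap no other annotated gene.

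The Smad4 KO replicates did not differ in the same way for all factors. Replicate 1 was higher than replicate 2 for Neurod1, Nkx2-2, Pax6, Pax4 and Isl1, and lower for Neurog3, Insm1, Chga and Chgb. The 4 genes that passed were those with the smaller spread, a ratio between the Smad4 KO replicates of 1.04 to 1.08, against 1.13 to 3.36 for the other 5. Since the test weighs the spread between replicates, this order is partly built into passing and is no separate finding. Low counts also widen such ratios: the largest, for Pax4, rests on 36 and 11 units.

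Within each library the 2 granins could be set against each other. The ratio of Chgb to Chga CPM was 4.55 and 4.50 in WT, 2.55 and 2.51 in Smad4 KO and 2.67 and 2.53 with TGF-β. The WT ratios thus stood well above the other 4, which overlapped. Only the change of such a ratio is meaningful, since it does not correct for gene length. The ratio of Insm1 to Neurog3 was 1.18 and 1.45 in WT, 1.77 and 1.81 in Smad4 KO and 1.86 and 2.16 with TGF-β. Every Smad4 KO library thus held more Insm1 per Neurog3 than either WT library. The ratio of Neurod1 to Neurog3 overlapped between the groups. It was 0.436 and 0.522 in WT, 0.890 and 0.460 in Smad4 KO and 0.599 and 0.574 with TGF-β. Reads shared with Fam241b could enter any ratio with Neurog3. Neurog3 per Chgb ranged from 0.0225 to 0.0262 in WT, 0.0215 to 0.0219 in Smad4 KO and 0.0146 to 0.0181 with TGF-β. These ratios were chosen after the values were seen and carry no test; an exact permutation test of 2 libraries against 2 cannot give a p below 0.333.

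**Figure D2:**
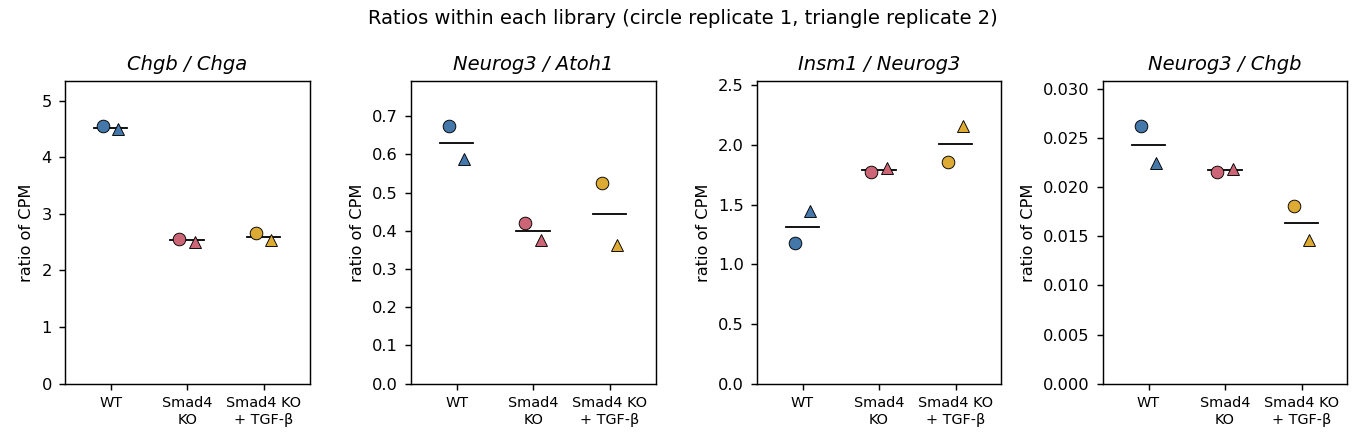
Ratio of CPM between pairs of genes within each library, with a bar at the mean of each group and axes that start at 0. The Chgb to Chga ratio is 4.50 to 4.55 in WT and 2.51 to 2.67 in the other 4 libraries, while the Neurog3 to Atoh1 ratio is 0.588 to 0.673 in WT and 0.362 to 0.525 elsewhere.

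Levels were also compared between genes, as mean CPM per kilobase of merged exons. In WT the order was Chgb (197 ± 2.01, SD, n = 2), Chga (43.4 ± 0.758), Neurog3 (7.85 ± 0.771), Insm1 (5.52 ± 0.257), Nkx2-2 (3.34 ± 0.593), Neurod1 (2.29 ± 0.067), Isl1 (0.863 ± 0.0675), Pax4 (0.326 ± 0.0307) and Pax6 (0.260 ± 0.010). On this per-length scale the means of all neighbours in WT were further apart than the sum of their SDs. In the knockout the order was the same, but from Neurog3 (2.85 ± 0.116) to Insm1 (2.75 ± 0.154), Nkx2-2 (2.24 ± 0.882) and Neurod1 (1.17 ± 0.484) each step was smaller than the sum of the SDs, although the libraries of Nkx2-2 and Neurod1 did not overlap. The steps from Isl1 (0.514 ± 0.0456) to Pax4 (0.411 ± 0.315) and Pax6 (0.174 ± 0.0458) were also smaller than that sum. With TGF-β Insm1 (2.18 ± 0.190) and Neurog3 (2.03 ± 0.390) changed places by less than the sum of their SDs, as did Pax4 (0.533 ± 0.0168) and Isl1 (0.403 ± 0.115). Pax6 has 11.7 kb of merged exons, far more than the others, and its per-length level depends on how much of that is transcribed.

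TGF-β added to Smad4 KO organoids moved none of the 9 genes past the threshold. In edgeR 0 passed and 2, Neurog3 and Insm1, had an unadjusted p under 0.05 (0.0465 and 0.0481), as 29.2% of all tested genes had. DESeq2 called 0 as well, with 0 at an unadjusted p under 0.05. Over all tested genes 8.48% passed as lower and 7.78% as higher in this comparison, 16.3% in all. The estimates were below 0 for 8 of the 9 genes, and 5 (Neurog3, Insm1, Pax6, Chga and Chgb) had both treated libraries below both untreated ones, as 29.1% of all tested genes did (27.7% the other way). The median log2 fold change was -0.34, against -0.01 over all tested genes.

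The intervals show how large a difference these libraries leave room for. For Chgb the log2 fold change was -0.08 with a 95% interval of -0.19 to 0.02, and for Chga -0.12 with -0.26 to 0.01. The granin intervals are thus narrow. For Neurog3 the estimate was -0.49 (-0.96 to -0.01) and for Neurod1 -0.67 (-1.50 to 0.16). Isl1 (-1.12 to 0.41), Nkx2-2 (-0.97 to 0.51) and Pax6 (-1.36 to 0.19) also had wide intervals. Without Smad4 KO replicate 1 the estimate for Nkx2-2 turned from -0.23 to 0.24.

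**Figure D3:**
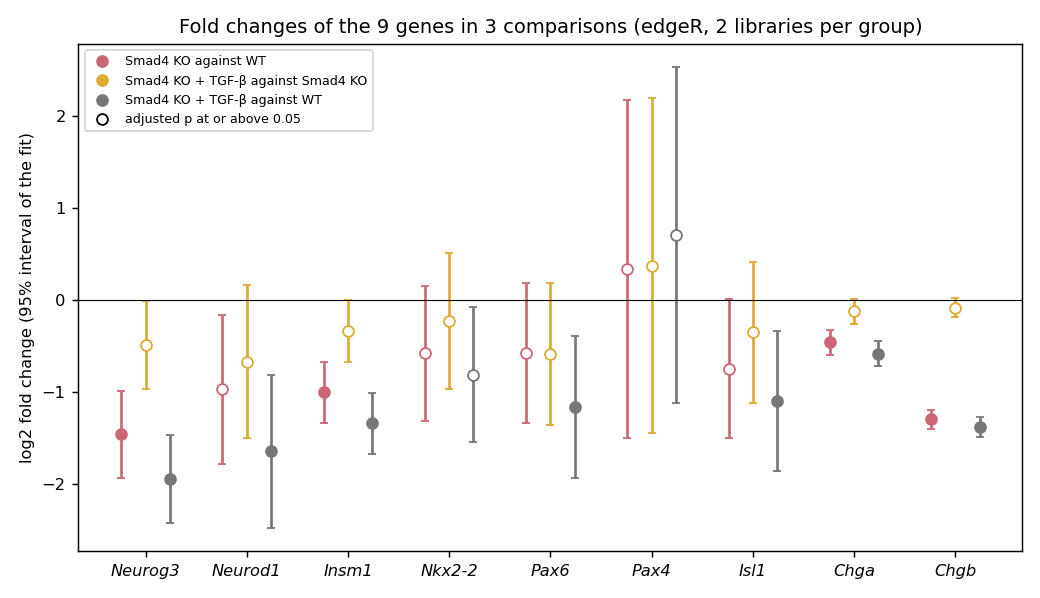
Log2 fold change of each gene in the 3 comparisons, with the 95% interval of the edgeR fit; filled points passed at an adjusted p under 0.05. The intervals are narrow for Chga and Chgb and span more than 3 log2 units for Pax4, and no point passed for TGF-β-treated against untreated Smad4 KO.

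Smad4 KO with TGF-β against WT shares its libraries with the first 2 comparisons and is not independent of them. Here 7 of the 9 genes passed as lower and 0 as higher, beside 19.0% and 20.7% of all tested genes, 39.7% together. For 8 of the 9, all but Pax4, both treated libraries lay below both WT libraries, as for 37.3% of all tested genes; for Pax4 they lay above, as for 35.0%. Neurog3 was 3.86-fold lower (log2 fold change -1.95 ± 0.20 SE, edgeR adjusted p = 0.000491), Insm1 2.53-fold and Chgb 2.61-fold, and Chga had a log2 fold change of -0.58. Neurod1 was 3.13-fold lower (log2 fold change -1.64 ± 0.35 SE, edgeR adjusted p = 0.0104), Pax6 2.24-fold (edgeR adjusted p = 0.0286) and Isl1 2.14-fold (edgeR adjusted p = 0.0338). Nkx2-2 did not pass (log2 fold change -0.81, edgeR adjusted p = 0.0799), and Pax4 had a log2 fold change of 0.71 (edgeR adjusted p = 0.509). Pax6 did not pass without any 1 of the 4 libraries compared (edgeR adjusted p = 0.0864 and 0.101 when WT replicate 1 or 2 is left out, 0.0818 and 0.114 for treated replicate 1 or 2). Isl1 did not pass without WT replicate 1 (0.0882), WT replicate 2 (0.126) or treated replicate 1 (0.137, edgeR adjusted p), and Neurod1 not without treated replicate 2 (0.0607). Nkx2-2 passed without either untreated Smad4 KO library (edgeR adjusted p = 0.0338 and 0.0318). Neurod1, Isl1 and Pax6 passed against WT with TGF-β and not without it. This does not show whether TGF-β changed them, since the direct comparison did not pass and its intervals were wide.

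Upstream of the 9 genes, in the secretory precursor, the master factor Atoh1 stood at 20.9 and 20.8 CPM in WT, 11.0 and 13.1 CPM in the knockout and 7.36 and 8.12 CPM with TGF-β. It was 1.73-fold lower in the knockout than in WT (edgeR adjusted p = 0.00615) and 2.69-fold lower with TGF-β than in WT. With TGF-β it was also lower than in untreated Smad4 KO (1.56-fold, edgeR adjusted p = 0.0244, a gene singled out for this comparison after its values were seen). That call ended without WT replicate 1 or 2 (edgeR adjusted p = 0.052 and 0.051), knockout replicate 2 (0.105) or treated replicate 1 or 2 (0.124 and 0.0686), and in a fit of the 4 libraries compared alone (0.0583). The ratio of Neurog3 to Atoh1 was 0.673 and 0.588 in WT, 0.421 and 0.375 in Smad4 KO and 0.525 and 0.362 with TGF-β, with both Smad4 KO groups below WT.

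Of 15 genes of the secretory precursor and Notch pathway, 14 were tested. In Smad4 KO against WT 6 fell and 2 rose, with a median log2 fold change of -0.42. For this list and those below, 13.4% of all tested genes passed as lower and 16.9% as higher in this comparison. The Notch ligand Jag2 was 1.63-fold lower and Lfng, an enzyme that modifies Notch receptors, 1.83-fold lower, whereas the ligand Jag1 was 1.70-fold higher (edgeR adjusted p = 0.000745, 0.00101 and 0.00374). The other gene that rose was the ligand Dll1, from 34.0 and 40.2 to 53.9 and 56.5 CPM (1.49-fold, edgeR adjusted p = 0.00646). With TGF-β Dll1 stood at 40.6 and 38.7 CPM, which did not pass against WT (edgeR adjusted p = 0.489). Notch2 was 1.40-fold lower in the knockout than in WT (edgeR adjusted p = 0.0107). With TGF-β against Smad4 KO 3 rose and 2 fell (median -0.13), where 7.78% of all tested genes passed as higher and 8.48% as lower. Jag1 rose further, from 22.1 and 23.4 to 43.8 and 44.7 CPM (1.94-fold, edgeR adjusted p = 0.00253). Jag2 rose 1.34-fold and Notch2 1.41-fold, and Dll1, which had risen in the knockout, fell 1.39-fold. These 3 calls each ended without 1 or more libraries: Jag2 without Smad4 KO replicate 2 (edgeR adjusted p = 0.057) or treated replicate 2 (0.0585), Notch2 without Smad4 KO replicate 1 (0.0932) or treated replicate 2 (0.0929), and Dll1 without any 1 of the 4 libraries compared (0.0707 to 0.11).

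Of 20 other enteroendocrine transcription factors 19 were tested. In Smad4 KO against WT 7 fell and 0 rose, with a median log2 fold change of -0.48. Rcor2, a corepressor of neuroendocrine gene silencing complexes, went from 35.3 and 40.2 CPM in WT to 10.8 and 13.5 CPM in the knockout (3.11-fold lower, edgeR adjusted p = 0.00041). Bhlha15, a helix-loop-helix factor of secretory cells including Paneth cells, was 2.70-fold lower, Hes6, an inhibitor of Hes1, 1.61-fold and Sox4 1.35-fold lower. With TGF-β against Smad4 KO 2 fell, Rcor2 (1.71-fold) and Myt1 (2.26-fold). Also 2 rose, Sox4 (1.61-fold) and Foxa1 (1.71-fold, edgeR adjusted p = 0.000427), neither of which is restricted to endocrine cells. Both counts of 2 in 19 lie near the shares over all tested genes, 8.48% lower and 7.78% higher. Rcor2 did not pass without Smad4 KO replicate 2 (edgeR adjusted p = 0.0637) or treated replicates 1 and 2 (0.0669 and 0.0791). The call for Myt1 ended without any 1 of the 6 libraries (edgeR adjusted p = 0.0503 to 0.136).

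Of 18 other granins and genes of granule cargo processing, 17 were tested. In Smad4 KO against WT 9 fell and 1 rose, with a median log2 fold change of -1.07. The granin Scg2 stood at 24.8 and 20.5 CPM in WT and at 6.34 and 5.33 CPM in the knockout (3.89-fold lower, edgeR adjusted p = 0.000507). The prohormone convertase Pcsk1 was 3.04-fold lower and the carboxypeptidase Cpe 2.94-fold lower. Pcsk1n, which encodes an inhibitor of Pcsk1, rose from 2.44 and 2.05 to 6.46 and 5.85 CPM (2.73-fold, edgeR adjusted p = 0.00339). With TGF-β against Smad4 KO 1 of the 17 passed, where 16.3% of all tested genes did. This was Ptprn2, a granule membrane protein that was 1.49-fold lower (edgeR adjusted p = 0.0159). The call ended without knockout replicate 2 (edgeR adjusted p = 0.08) or treated replicates 1 and 2 (0.0806 and 0.0696).

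The hormones carried in these granules fell in 8 of 12 tested cases in Smad4 KO against WT and rose in 0, with a median log2 fold change of -1.36. Glucagon (Gcg) was 6.22-fold, somatostatin (Sst) 3.68-fold, Cck 2.67-fold and Gip 2.62-fold lower. None of the 12 passed for TGF-β against Smad4 KO in edgeR, where 16.3% of all tested genes did. An unadjusted p under 0.05 was found for 3 of the 12, beside 29.2% of all tested genes. In this comparison DESeq2 called 1624 genes as higher and 1661 as lower. Of the 13 hormones to which it gave an adjusted p it called 1, ghrelin (Ghrl, log2 fold change -0.57, DESeq2 adjusted p = 0.035, named after its values were seen). Cck, the most abundant, had a log2 fold change of 0.05, which turned to -0.0038 without treated replicate 2. Serotonin cells showed a mixed set of 8 genes, of which 3 fell and 2 rose in Smad4 KO against WT. Tph1, the enzyme that starts serotonin synthesis in enterochromaffin cells, was 2.97-fold lower and Tac1, a peptide precursor of the same cells, 2.52-fold lower. Ddc, which completes that synthesis but is also made by enterocytes, was 2.29-fold higher, and Gch1, which makes a cofactor for Tph1, 1.63-fold higher. With TGF-β against Smad4 KO Gch1 rose 1.98-fold and Ddc fell 1.24-fold; the call for Ddc ended without any 1 of the 4 libraries compared (edgeR adjusted p = 0.0557 to 0.131).

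**Figure D4:**
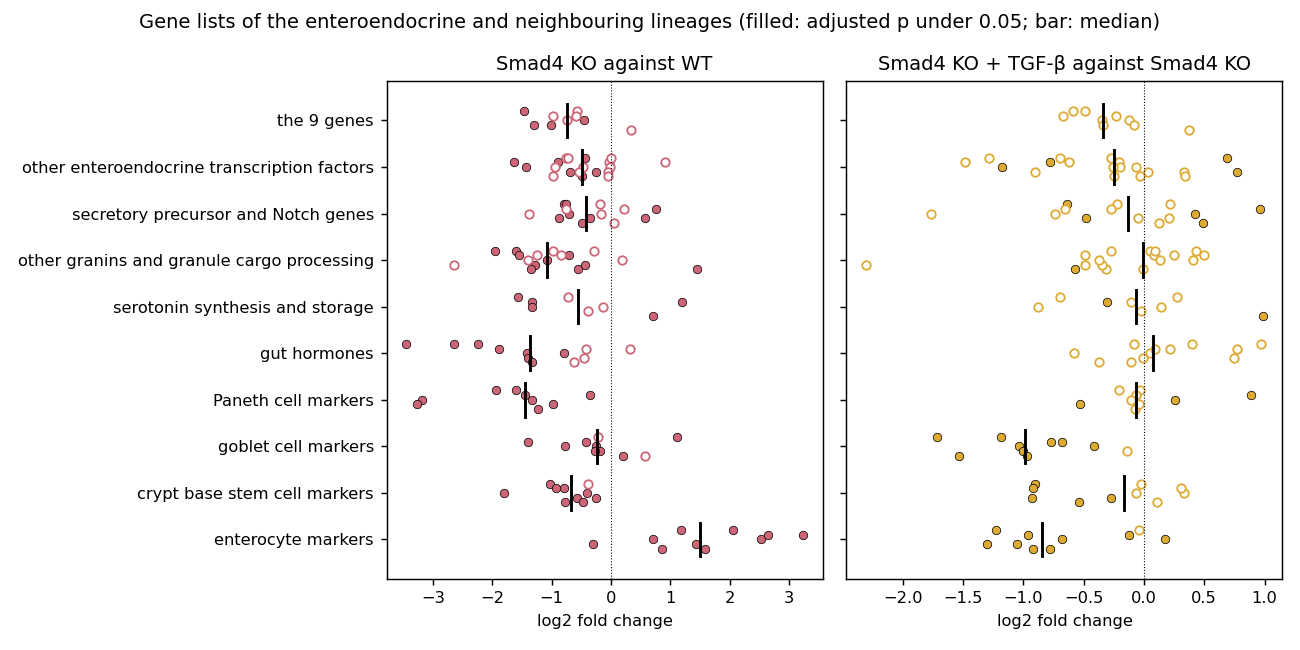
Log2 fold change of every tested gene of 10 lists in 2 comparisons, with filled points for genes that passed and a bar at the median of each list. In Smad4 KO against WT the medians are -0.75 for the 9 genes, -1.07 for granule genes, -1.36 for hormones and -1.45 for Paneth cell markers; with TGF-β against Smad4 KO those of granule genes, hormones and Paneth cell markers are within 0.1 of 0.

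Markers of neighbouring lineages moved in the same libraries. Over all tested genes 13.4% passed as lower and 16.9% as higher in Smad4 KO against WT. With TGF-β against Smad4 KO these shares were 8.48% and 7.78%. In Smad4 KO against WT 9 of 9 tested Paneth cell markers fell, with summed levels of 8140 and 8150 CPM in WT and 3158 and 3320 CPM in the knockout. Of 10 stem cell markers of the crypt base 9 fell (7458 and 7337 CPM against 4456 and 4473 CPM). Goblet cell markers fell in 6 and rose in 2 of 10. Of 8 tested tuft cell markers 1 fell, which is near the share over all tested genes. Enterocyte markers rose in 9 of 10 cases, from 3918 and 3970 to 11747 and 11861 CPM. The summed level of the 9 enteroendocrine genes went from 707 and 720 to 331 and 338 CPM in this comparison, and it was 315 and 302 CPM with TGF-β. Chgb made up 537 and 545 CPM of the WT sums and Chga 118 and 121 CPM, so the sum describes mainly the granins. The sums of other lists also lean on their most abundant genes. Over the 6 libraries the highest value of a single gene was 3990 CPM among stem cell markers and 2737 CPM among goblet cell markers. With TGF-β against Smad4 KO, goblet cell markers fell in 9 of 10 cases (summed levels 3926 and 3816 against 2026 and 2011 CPM) and 0 of the 9 enteroendocrine genes passed. Of 10 enterocyte markers 8 fell and 1 rose (11747 and 11861 against 7894 and 7867 CPM), and 5 of the 10 stem cell markers fell (4456 and 4473 against 3114 and 3086 CPM). Of 9 tested Paneth cell markers 2 rose and 1 fell. The part of these shifts in the values of the 9 genes was not tested.

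Sequence near the starts of the granins, and of genes that share a motif with them, is shown because these genes gave the most precise differences, and because cAMP response elements in chromogranin promoters are textbook examples. Of the 9 genes, 7 have a RefSeq promoter entry (GRCm38.p6), Pax6 for 2 starts. The 250 bases before each RefSeq start were searched on both strands for the E-box CANNTG, which is its own reverse complement and contains the form CAGCTG, for the short cAMP response element TGACGT and its full form TGACGTCA, and for the SMAD-binding letters CAGAC. A RefSeq start can lie inside the gene as GENCODE annotates it: the windows of Chgb, Nkx2-2 and the second Pax6 start lie wholly within the gene spans given here, that of Chgb with all 250 bases in annotated UTR, and the window of Neurod1 has 115 bases in UTR. For these the window is upstream of the RefSeq start only. The motifs were chosen after the sequences were seen. In Chga (chr12:102554691-102554940, plus strand) the E-boxes and the short element are in capitals.
Chga upstream: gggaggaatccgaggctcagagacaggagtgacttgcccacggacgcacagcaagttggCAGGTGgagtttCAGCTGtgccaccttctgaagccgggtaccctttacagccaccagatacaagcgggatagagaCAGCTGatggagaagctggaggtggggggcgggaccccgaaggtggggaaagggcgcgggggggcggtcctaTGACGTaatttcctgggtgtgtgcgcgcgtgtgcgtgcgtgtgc
The short element stood in 4 of the 7 genes, beside 6.47% of 32851 promoter windows of all genes. A gene counts if any of its windows matches, while the shares are per window, and no test was made. The sites are shown with their 30-base surroundings, the element in capitals (Chgb chr2:132781559-132781588 plus, Pax6 chr2:105668809-105668838 plus, Isl1 chr13:116309730-116309759 minus, Chga chr12:102554885-102554914 plus).
Chgb: gggctgctccgTGACGTCAgggctgagcga
Pax6: tctggccgccgTGACGTCAtccgcgcccgg
Isl1: gcggcgctcgccTGACGTccccgcgcgctg
Chga: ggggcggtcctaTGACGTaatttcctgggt
Chgb and Pax6 carry the full element, as 1.55% of all windows do, and Pax6 has a further short element at its second start. E-boxes stood in 7 of 7 genes, in Pax6 at 1 of its 2 starts (66.2% of all windows), CAGCTG in 3 (13.0%) and CAGAC in 3, namely Neurod1, Isl1 and Pax6 (42.2%). The short element thus stood both in genes that fell in Smad4 KO (Chga, Chgb) and in genes that did not pass (Pax6, Isl1), and was not among the letters upstream of Neurog3. These matches describe the sequence only.

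The genes whose pattern over the 6 libraries was most like that of the 9 genes were found by correlation. The profile was the mean of the standardized log2 CPM of the 8 members with a mean of at least 1 CPM, which leaves out Pax4, and 10710 other genes whose mean reached 5 CPM were compared with it. The 10 closest were Paip2b, Sf3b1, Pimreg, Fhad1, Anp32b, Mgat4b, Gins4, Phgdh, Plekhn1 and Zfp13, with Pearson r between 0.994 and 0.998 over 6 libraries that fall into 3 groups. None of them is on a list used here. Fhad1 was the one with the lowest log2 fold change in Smad4 KO against WT, -2.17, and Sf3b1, a splicing factor, moved little (-0.25). These genes were picked for sharing the pattern, so that they share it is no finding. Their fold changes differed widely.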

How the data were processed

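RNA-seq libraries from 6 organoid samples were grouped by their titles into WT, Smad4 KO and Smad4 KO with TGF-β. The authors deposited estimated counts per Ensembl gene as whole numbers, 1 column per library. The submitters' processing notes list HISAT2 2.1.0, StringTie 1.3.3b, FastQC 0.11.9 and SAMtools 1.9 and the build GRCm38 (mm10). Annotation release, strand setting, read length and rounding: not given in the sources used here. Of deposited values from 1 to 24, 42.3% were multiples of 4 (25% if even), from which about 4 units per fragment, or 10.1 to 12.7 M fragments per library, were inferred.

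Genes were kept by filterByExpr (15503 of 31227; 97 had no symbol), scaled by TMM and tested with edgeR 4.0.16 (glmQLFit and glmQLFTest, 2-sided, R 4.3.3) on all 6 libraries with group as the only term, leaving 3 residual degrees of freedom. The threshold was an adjusted p of 0.05 (Benjamini-Hochberg, over all tested genes). Intervals are 95% intervals of that fit. DESeq2 1.42.0, other scalings and filters, a replicate block, the 4 compared libraries alone, counts divided by 4 and leaving out each library were alternatives. Replicates differed by more than sampling noise (chi-square per degree of freedom 5.46 to 6.48, in fragments).

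Named genes were the 9 members, Smad4, up to 4 passing genes of smallest adjusted p from each of 5 lists and comparison (otherwise the most abundant), and the 10 most similar profiles. The members and lists were chosen with earlier results of these data known. Positions and exon lengths come from GENCODE vM21 (GRCm38), upstream sequences from RefSeq (GRCm38.p6). Insm1 and Pax4 have no entry in that table. Of the list genes, 2 matched no row.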

Additional observations from a re-analysis of the deposited data

How the results depend on the processing

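The counts of genes that passed and the fold changes of the named genes were recomputed under 14 alternatives (12 for Pax4, which has no value with counts divided by 4 or a minimum of 1 CPM). Medians of lists, ratios and the similarity ranking were not. Neurog3, Insm1, Chga and Chgb passed as lower in Smad4 KO against WT, and with TGF-β against WT, under all 14. With TGF-β against untreated Smad4 KO 0 of the 9 genes passed under any of them; against WT 5 to 8 passed. Leaving out 1 library gave 1166 to 1867 genes lower in Smad4 KO against WT, and 656 to 1108 genes higher and 848 to 1196 lower with TGF-β against Smad4 KO. In those fits the log2 fold change of Pax4 ran from -0.78 to 0.96 in Smad4 KO against WT and from -0.25 to 1.49 with TGF-β against Smad4 KO, where that of Nkx2-2 ran from -0.59 to 0.24 and that of Cck from -0.0038 to 0.10; fewer libraries entered each. Nkx2-2 with TGF-β against WT passed in a fit of those 4 libraries alone (edgeR adjusted p = 0.0323).

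The labels do not say what a replicate number marks, and same-numbered libraries did not deviate together (r = 0.0118, 0.00135 and 0.0138 over genes for the 3 pairs of groups). With a replicate block 1799 genes were lower and 2385 higher in Smad4 KO against WT, 1135 and 1018 with TGF-β against Smad4 KO, and 2668 and 2999 with TGF-β against WT. The block ended the call of Isl1 with TGF-β against WT (edgeR adjusted p = 0.0503) and that of Myt1 with TGF-β against Smad4 KO (0.0578). Depth limits Pax4 most.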
